A study of Mus musculus with 19 samples.

Results

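Limb buds that lack 3 CTCF sites of the Shh locus were set beside limb buds that lack 2 of them, in capture Hi-C maps of mouse embryos at day E10.5. Both groups carry the deletion of the CTCF sites named i4 and i5. One group, i4i5ZRS, also lacks a further CTCF site that is named for the ZRS, the other, i4i5, keeps it, and the labels give no other difference in genotype, tissue or age. The deletions were made with CRISPR-Cas9, and the labels do not say whether both alleles carry them. Both groups are limb buds of the G4 strain, and they were chosen by the sample titles. Each has 2 samples, so the comparison uses 4 of the 19 samples of the series. The other groups, used below only as values side by side, are wild type limb bud, midbrain and embryonic stem (ES) cells, limb buds without an element named ZRSreg, without i4, i5 and ZRSreg, or without the Lmbr1 promoter, and midbrain with the i4i5ZRS deletion. Wild type limb and midbrain are C57BL/6, while the deletions and the ES cells are G4. The series design calls samples of a deletion technical replicates, the titles give each pair 1 library number, and the 2 samples of each group were deposited as 1 merged map. No value below therefore has a spread between replicates, no test was possible and no p-value is given. The intervals given (95%) hold counting error alone and compare libraries rather than genotypes.

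Shh encodes Sonic hedgehog, a secreted signal that patterns the limb along its thumb to little finger axis. In the limb it is switched on by the ZRS, an enhancer that lies far from the gene, within an intron of Lmbr1, near the opposite end of the domain that holds both. Chromatin domains of this kind are regions whose DNA meets itself more often than it meets its neighbours. They form as the cohesin ring extrudes a loop of DNA until it is halted, most often at bound CTCF proteins that face one another. In capture Hi-C, DNA ends that lie close together in fixed nuclei are ligated, enriched for a single region and sequenced, so that a pair of positions that meets often gives many joined reads. The comparison asks what the third CTCF site adds to contacts once i4 and i5 are gone.

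Each map covers 280 bins of 10 kb on chromosome 5, from 27800001 to 30600000 in the mm9 build. Contact is expressed as observed over expected: the signal of a pair after balancing is divided by the mean over pairs equally far apart in its own map, so that 1 is the average for that distance. The i4i5ZRS map holds 1983686 contacts and the i4i5 map 1177173, the lowest of the 9 maps. The Shh promoter is the 2 bins from 28780001 to 28800000, and distances count upward from the bin that starts at 28790001. By gene order, Rnf32, Lmbr1, Nom1, Mnx1, Ube3c and Dnajb6 follow Shh on this side, and Rbm33, Cnpy1, En2 and Insig1 lie on the other. The Shh domain is the 93 bins between the lower border bin at -30 kb (28760001 to 28770000) and the upper border bin at 910 kb (29700001 to 29710000). The window taken for the ZRS is the 5 bins from 830 to 870 kb (29620001 to 29670000). It was placed from general knowledge of how far the ZRS lies from Shh, not from a coordinate in the files.

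The i4i5 map has 2 stretches of low coverage, and 1 of them overlaps that window. In the 5 bins from 860 to 900 kb (29650001 to 29700000) it holds 25005 contacts, a log2 ratio of -0.72 per bin to the bins on either side. The i4i5ZRS map holds 51795 there, a ratio of -0.39, and the other 7 maps range from -0.46 to -0.32. These 5 bins are called the low bins and are given apart, which leaves 830 to 850 kb (29620001 to 29650000) as the part of the ZRS window with ordinary coverage. The other stretch, from -540 to -490 kb (28250001 to 28310000), holds 12150 contacts in i4i5 and 31202 in i4i5ZRS, or -1.77 and -1.10 to its flanks. It is also low in wild type midbrain (-1.78) and wild type limb (-1.46), the groups that share the lowest library numbers with i4i5, and lies between -1.25 and -1.09 in the other 6. The maps differ in their decay as well: pairs up to 10 kb apart carry 39.1% of the signal in i4i5ZRS and 29.8% in i4i5, and pairs 500 to 990 kb apart 9.04% and 11.3%.

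**Figure D1:**
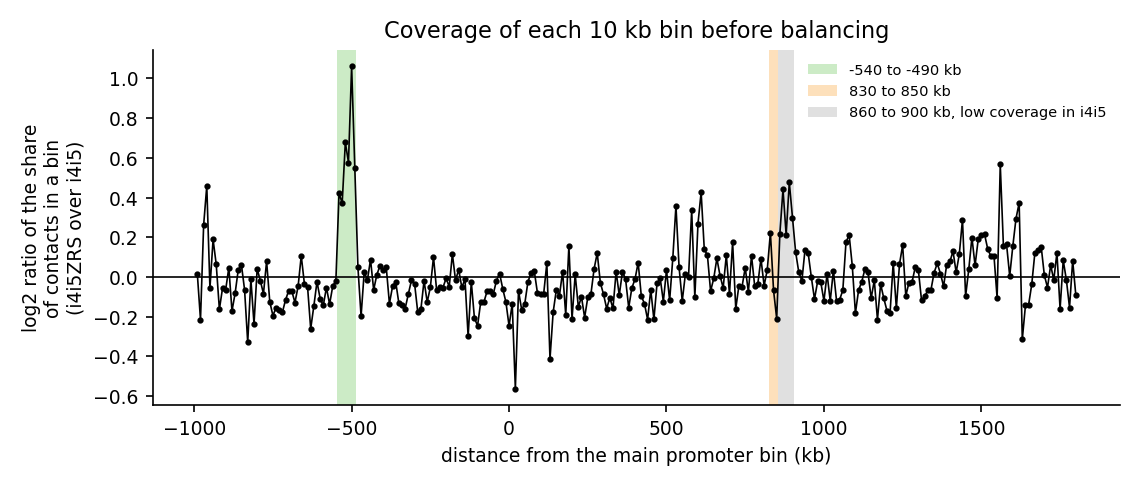
Coverage of each 10 kb bin in the recovered contacts, as the log2 ratio of its share in i4i5ZRS over its share in i4i5, against distance from the main promoter bin; shading marks the low bins, the rest of the ZRS window and the stretch from -540 to -490 kb. Of 280 bins 14 are 0.3 or more above 0 and 4 are 0.3 or more below, and 6 of the 14 lie in the stretch from -540 to -490 kb.

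Relative to the mean for its distance in each map, the Shh promoter met the ZRS window more often in i4i5ZRS than in i4i5. This was also so outside the low bins. At 830 to 850 kb the promoter stood at 3.91 times the expected signal in i4i5ZRS (3.49 to 4.37, SD 0.377 over the 6 bin pairs, 357 contacts). In i4i5 it stood at 2.82 (2.42 to 3.27, SD 0.361, 215 contacts). All 6 bin pairs were higher in i4i5ZRS, by a log2 ratio of 0.47 (0.20 to 0.75) or 38.8% (15.1% to 67.9%), with an SD of 0.10 over the pairs. Wild type limb stood at 6.51 in the same bins, so both maps lay far below it. The difference depends on the scale. The log2 ratio was 0.22 when each map was divided by its total signal only. It was 0.27 on contact counts without balancing and 0.92 with no scaling at all. As raw counts the bins held 357 of 1983686 contacts in i4i5ZRS and 215 of 1177173 in i4i5, nearly the same share. Such raw shares leave the differences in decay and in bin coverage in place.

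Bin by bin the 3 bins with ordinary coverage differed by nearly the same amount. At 830 kb (29620001 to 29630000) the contact was 3.56 in i4i5ZRS and 2.59 in i4i5, from 91 and 46 contacts, and at 840 kb 3.89 and 2.77, from 82 and 49. At 850 kb (29640001 to 29650000) it was 4.28 and 3.10 from 184 and 120 contacts, a log2 ratio of 0.47 (0.12 to 0.82). The intervals at 830 kb (-0.08 to 1.02) and 840 kb (-0.05 to 1.05) include 0. The bin just below the window, at 820 kb (29610001 to 29620000), had closer values, 3.74 and 3.59 (0.06, -0.31 to 0.42). Its interval overlaps those of the 3 bins, so it is not separated from them. At 810 kb (29600001 to 29610000), where the promoter profile of wild type limb has its peak, the values were 6.16 and 5.49 (0.17, -0.11 to 0.45).

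The low bins showed a smaller and less even difference. The promoter met them at 3.205 in i4i5ZRS (2.90 to 3.53, SD 0.735 over 10 bin pairs, 445 contacts) and at 2.68 in i4i5 (2.33 to 3.06, SD 0.962, 246 contacts). The log2 ratio was 0.26 (0.02 to 0.50), with 7 of 10 pairs higher. It was -0.03 when each map was divided by its total signal only, and 0.44 on counts without balancing. The bins at 860 and 890 kb carried most of it, with 3.37 against 2.27 (0.57, 0.05 to 1.12) and 3.31 against 2.302 (0.52, -0.02 to 1.08). The bins at 870, 880 and 900 kb stood at 2.42, 2.69 and 4.24 in i4i5ZRS and at 2.20, 2.56 and 4.06 in i4i5, and their intervals include 0. The bin at 870 kb rests on 45 and 23 contacts. Over the whole 5 bin ZRS window the promoter stood at 3.51 and 2.58, a log2 ratio of 0.44 (0.21 to 0.68), which was 0.19 under total scaling.

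**Figure D2:**
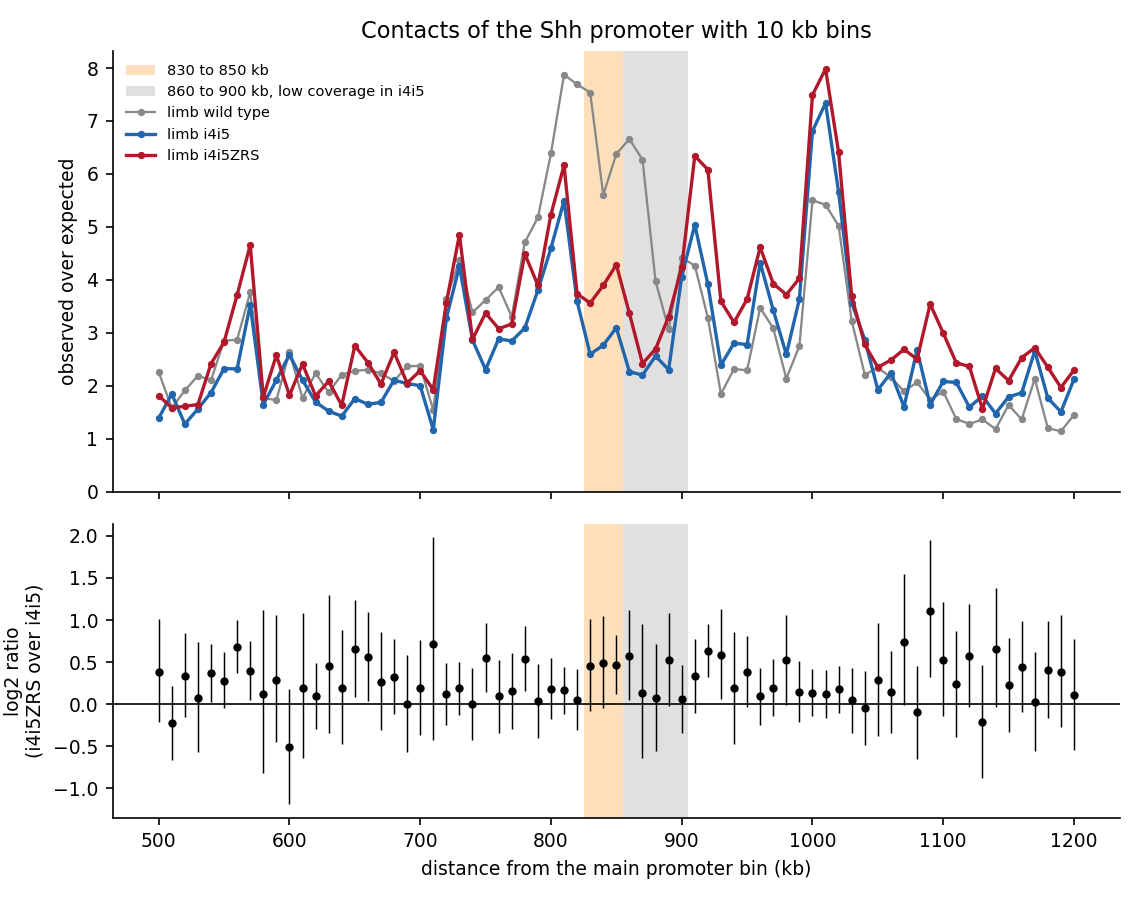
Upper panel: observed over expected contact of the 2 Shh promoter bins with each 10 kb bin from 500 to 1200 kb in i4i5ZRS, i4i5 and wild type limb. Lower panel: log2 ratio of i4i5ZRS over i4i5 with 95% counting intervals. The bins at 830 to 850 kb lie at 3.56 to 4.28 in i4i5ZRS and 2.59 to 3.10 in i4i5, and most bins in the plotted range lie above 0 in the lower panel.

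Higher promoter contact after balancing was not limited to the ZRS window. Before balancing the 2 promoter bins held 0.784% of all contact ends in i4i5ZRS and 0.883% in i4i5. Balancing gives every bin of a map the same total. The part of this coverage difference in the promoter ratios was not tested. From 540 to 750 kb 21 of 22 bins were higher in i4i5ZRS, with a median log2 ratio of 0.28. All 7 bins from 760 to 820 kb and all 12 bins from 910 to 1020 kb were higher too. These bins share the same promoter bins, and few differed beyond counting error alone. The interval lay above 0 in 6 of the 22 bins, 1 of the 7 and 2 of the 12. The share of intervals above 0 over the maps as a whole was not taken, so these counts have no background. The bins at 1000 to 1020 kb together gave 0.14 (-0.02 to 0.31). Of the 22 bins 5 had a log2 ratio of 0.5 or more and 1 had -0.5 or less. Over all columns of 2 bins with 1 bin at 500 to 1500 kb in these maps, the median was -0.01. Of them 14.9% lay at 0.5 or more and 15.5% at -0.5 or less. The SD of that background was 0.567, and of the 5 bins of the ZRS window 4 had a ratio below it, while the bin at 860 kb (0.572) lay just above it. The background was not matched to the promoter's bins in contact counts, and part of its SD is counting error. With the domain interior (100 to 750 kb) the promoter stood at 1.66 in i4i5ZRS (1.61 to 1.71, 7377 contacts) and 1.43 in i4i5 (1.38 to 1.48, 5103 contacts), a log2 ratio of 0.22 (0.15 to 0.28). With the 500 kb above the upper border it stood at 2.66 and 2.20 (0.28, 0.20 to 0.35), and each 100 kb step of that flank gave between 0.21 and 0.43. The direction turned on the other side of Shh, toward Rbm33 and En2. There, over the 500 kb below the lower border, the promoter met its partners at 0.788 in i4i5ZRS and 0.875 in i4i5 (-0.15, -0.23 to -0.07). Neither the lower contact on that side nor the higher contact with the interior was limited to the promoter. The bins from 10 to 90 kb gave -0.21 (-0.27 to -0.15) with -480 to -40 kb. With 100 to 300, 310 to 530 and 540 to 750 kb they gave 0.10, 0.14 and 0.15. They did not share the promoter's rise with 830 to 850 kb (-0.04, -0.23 to 0.16) or 920 to 1160 kb (-0.02, -0.11 to 0.06).

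Set against the promoter's own contacts elsewhere, the difference at the ZRS window was smaller. The contact at 830 to 850 kb was 2.36 times that with the domain interior in i4i5ZRS and 1.97 times in i4i5, a difference of 0.26 on the log2 scale whose interval (-0.02 to 0.53) includes 0. Against 760 to 820 kb the same contact was 0.920 and 0.750 times as high (0.30, -0.005 to 0.595), and against the upper flank 1.47 and 1.28 times (0.20, -0.08 to 0.47). The data at this depth therefore do not separate the ZRS window from these parts of the promoter's upper side. Closer to Shh, from 20 to 90 kb, 3 of 8 bins were higher in i4i5ZRS (median log2 ratio -0.03). No quotient to that stretch was taken. In wild type limb the contact at 830 to 850 kb was 3.88 times that with the domain interior.

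As a share of the promoter's signal at 20 kb or more, the ZRS window and the interior were higher in i4i5ZRS, while the share beyond 1000 kb did not follow the ratios. The bins at 830 to 850 kb took 1.81% of it in i4i5ZRS (1.64% to 2.00%) and 1.45% in i4i5 (1.27% to 1.64%), against 3.13% in wild type limb. The low bins took 2.303% and 2.19%. The intervals of the 2 maps overlap in both sets of bins, at 830 to 850 kb only just. The interior took 30.3% (29.7% to 30.9%) and 28.4% (27.7% to 29.1%), and the side below Shh 29.0% (28.4% to 29.6%) and 31.3% (30.6% to 32.0%). Beyond 1000 kb lay 15.9% (15.5% to 16.4%) and 16.5% (15.97% to 17.1%), a difference of -0.60 percentage points whose interval (-1.36 to 0.15) includes 0. Wild type limb had 11.4% there. Balancing gives every bin the same total, so a higher share in one place is met by a lower share in another.

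Around the upper border the promoter's contacts differed between the maps by as much as at the ZRS window. At 910 and 920 kb together the promoter stood at 6.21 in i4i5ZRS (5.57 to 6.90, SD 1.07 over 4 bin pairs, 401 contacts) and at 4.48 in i4i5 (3.83 to 5.21, SD 1.87, 211 contacts). The log2 ratio was 0.47 (0.20 to 0.75), with 3 of 4 pairs higher. At 920 kb (29710001 to 29720000) alone it was 6.08 against 3.92 (0.64, 0.33 to 0.95), and at 910 kb 6.34 against 5.04 (0.33, -0.10 to 0.77). Both maps had their highest promoter contact beyond 500 kb further out, at 1010 kb (29800001 to 29810000), with 7.98 and 7.34 (0.12, -0.17 to 0.41).

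Other maps show where the pair falls among related deletions. Limb i4i5 plus ZRSreg, a further map without i4 and i5, stood between the 2 maps at 830 to 850 kb, at 3.27. The i4i5ZRS map exceeded it by a log2 ratio of 0.26 (0.04 to 0.48), and it exceeded i4i5 by 0.21 (-0.05 to 0.48). At 910 and 920 kb it stood at 4.59, near i4i5, and i4i5ZRS exceeded it by 0.44 (0.22 to 0.65). Midbrain with the i4i5ZRS deletion stood at 3.83 at 830 to 850 kb and at 6.44 at 910 and 920 kb, near limb i4i5ZRS in both. The 5 maps that keep i4 and i5 ranged from 6.18 to 6.67 at 830 to 850 kb and from 3.36 to 4.22 at 910 and 920 kb. With the interior the order was different: limb i4i5ZRS (1.66) lay beside wild type limb (1.68), midbrain i4i5ZRS was higher (1.98), and limb i4i5 (1.43) and limb i4i5 plus ZRSreg (1.45) were the lowest of the 9.

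**Figure D3:**
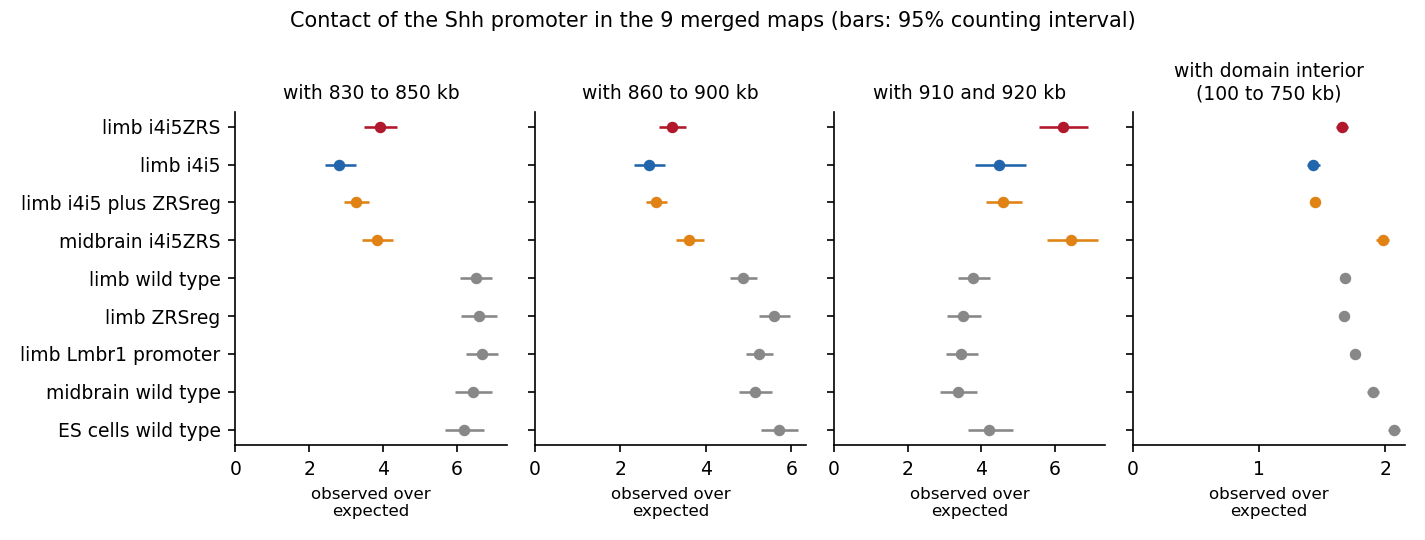
Observed over expected contact of the Shh promoter with 4 sets of bins in each of the 9 merged maps; points are the means over bin pairs, bars the 95% counting intervals. Limb i4i5ZRS (red) lies above limb i4i5 (blue) in every panel, with intervals that overlap only at 860 to 900 kb, and at 910 and 920 kb limb and midbrain i4i5ZRS have the highest values, 6.21 and 6.44.

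From the side of the ZRS, contacts with partners other than the promoter changed less. The bins at 830 to 850 kb met the domain interior at 1.24 in i4i5ZRS and 1.20 in i4i5 (0.05, -0.01 to 0.11). They met the 500 kb above the border less often, at 0.827 and 0.903 (-0.13, -0.20 to -0.05), with 54 of 150 bin pairs higher, and wild type limb stood at 0.672. The nearer part of that flank, from 920 to 1160 kb, gave 0.743 and 0.840 (-0.18, -0.27 to -0.09). The bins from 760 to 820 kb shared this, at 0.744 and 0.797 with the whole flank (-0.10, -0.15 to -0.05). At longer range on the other side, bins from -990 to -550 kb met 830 to 850 kb at 1.18 and 1.00 (0.24, 0.08 to 0.40). The promoter and the bins at 830 to 850 kb thus went in opposite directions toward the upper flank, 0.28 and -0.13.

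The low bins were compared with the same partners. With the domain interior they stood at 1.21 in i4i5ZRS and 1.13 in i4i5 (0.10, 0.05 to 0.155), and with the 5 bins just below them at 0.873 and 0.810 (0.11, 0.02 to 0.20). The 5 bins just above them gave 0.659 and 0.681 (-0.05, -0.16 to 0.06), with 11 of 25 pairs higher. The border bins met the interior at a like ratio, 0.13 (-0.01 to 0.26) at 910 kb and 0.10 (-0.01 to 0.20) at 920 kb. With the upper flank the maps did not separate at the low bins, at 0.886 and 0.895 (-0.01, -0.07 to 0.05), nor among themselves, at 0.914 and 0.947 (-0.05, -0.15 to 0.05). Contact that passes over them, between the 5 bins below and the 5 bins above, was lower in i4i5ZRS, at 0.748 against 0.822 (-0.135, -0.25 to -0.02), with 7 of 25 pairs higher. With 3 bins a side it was 0.745 and 0.856 (-0.20, -0.39 to -0.01). Limb i4i5 plus ZRSreg stood at 0.716 and 0.668 in these 2 sets and wild type limb at 0.547 and 0.592. The part of the low coverage in these values was not tested.

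**Figure D4:**
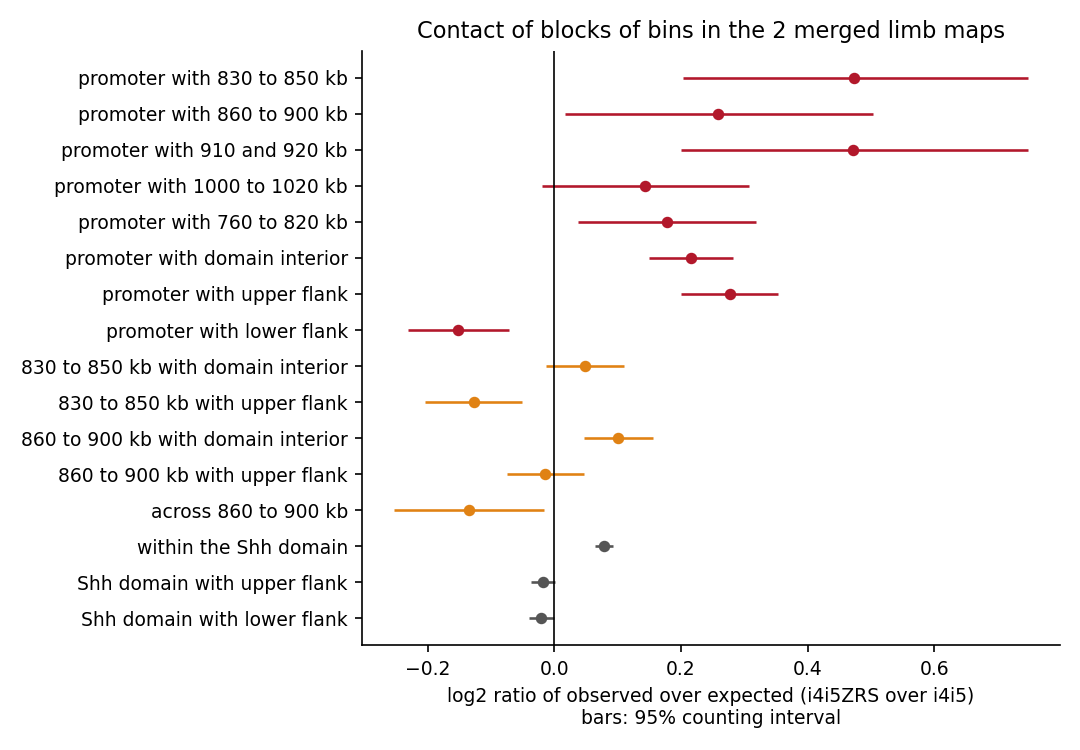
Log2 ratio of observed over expected contact, i4i5ZRS over i4i5, for 16 blocks of bin pairs with 95% counting intervals; red marks the promoter, orange the bins around the ZRS and grey the domain as a whole. Promoter blocks on the upper side lie between 0.14 and 0.47, the block with the lower flank lies at -0.15, and the blocks of the whole domain lie between -0.02 and 0.08.

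Over the whole Shh domain the maps differed little. Contact within the domain, at 50 kb or more, was 1.33 in i4i5ZRS (253842 contacts) and 1.26 in i4i5 (170094 contacts). The log2 ratio was 0.08 (0.06 to 0.09) or 5.61% (4.60% to 6.64%). Of the 3916 bin pairs 2274 were higher in i4i5ZRS, with an SD of 0.42 over the pairs. As means of a bin with the domain 88 of 93 bins were higher, but the bins share these pairs. The log2 ratio within the domain was -0.09 when each map was divided by its total signal only. Contact between the domain and the upper flank was 0.892 and 0.903, a change of -1.20% (-2.47% to 0.093%) or -0.02 on the log2 scale. Its direction was not stable: it was 0.0073 with the median as the expected value, 0.019 with a flank of 30 bins and -0.28 when each map was divided by its total signal only. Among the 93 domain bins 36 met the flank more often in i4i5ZRS. The highest ratios belonged to the 2 promoter bins, 0.32 (0.21 to 0.44) at -10 kb and 0.23 (0.13 to 0.33) at 0 kb. The lowest, -0.45 (-0.83 to -0.07), lay 40 kb above the promoter (28830001 to 28840000). By steps of 100 kb the flank was uneven: domain contact differed by 0.05 (0.01 to 0.08) with 920 to 1010 kb, by -0.14 (-0.19 to -0.09) with 1320 to 1410 kb, and by -0.03 to 0.03 with the 3 steps between them.

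Both borders were deeper in the map without the third site. Insulation is the log2 of the signal that crosses a bin in a square of 10 by 10 bins over its mean along the map, so a lower value is a stronger border. At the upper border it was -0.62 in i4i5ZRS and -0.52 in i4i5, a difference of -0.10 (-0.15 to -0.04), against -0.78 in wild type limb and -0.62 in limb i4i5 plus ZRSreg. It was -0.20 with the low bins left out of the square and turned to 0.06 on counts without balancing. At the lower border, beside the promoter, it was -1.09 and -0.95 (-0.14, -0.20 to -0.07). Neither difference was the largest along the map: among 260 bins the upper border had the 25th lowest and the lower border the 10th lowest value, and 42 bins differed by 0.1 or more. The sign turned within the ZRS window. At 840 kb insulation was -0.14 in i4i5ZRS and -0.25 in i4i5, a difference of 0.10 (0.05 to 0.155), where wild type limb was at -0.47. The largest differences lay outside the domain, -0.22 at 1660 kb and 0.17 at 1060 kb.

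**Figure D5:**
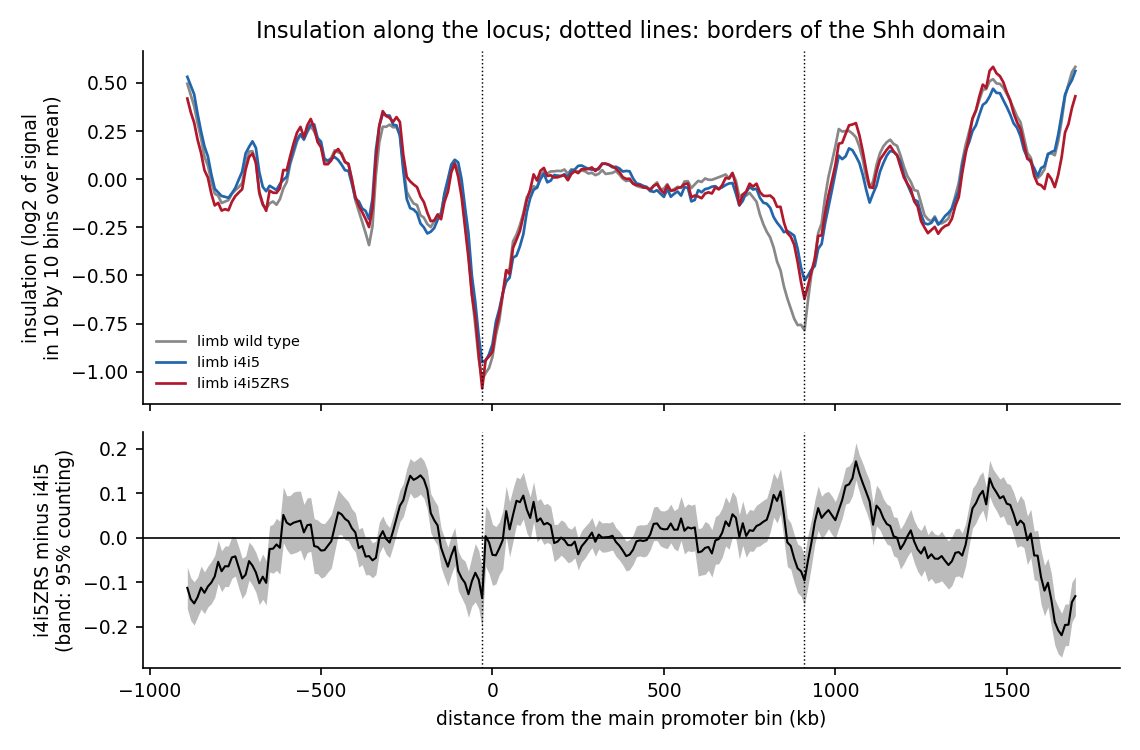
Upper panel: insulation along the locus in i4i5ZRS, i4i5 and wild type limb; dotted lines mark the borders at -30 and 910 kb. Lower panel: i4i5ZRS minus i4i5 with its 95% counting band, -0.14 and -0.10 at the borders, 0.10 at 840 kb, and its extremes at 1060 and 1660 kb.

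Over all bin pairs the maps were much alike. Of 35511 means of 5 by 5 bins at 100 kb or more, 0.915% had a log2 ratio of 0.5 or more and 0.907% one of -0.5 or less, and the SD was 0.19. Without the averaging 19.8% of single bin pairs lay at 0.5 or more. The largest differences lay among distant, thinly covered pairs. The highest joined -520 kb with 1340 kb, at 0.966 in i4i5ZRS and 0.396 in i4i5 from 49 and 13 contacts, and wild type limb stood at 0.938. The next joined -500 kb with 1640 kb (0.976 and 0.410). The third joined -940 kb with 1600 kb (1.28 and 0.568), the fourth -970 kb with 960 kb (0.894 and 0.403) and the fifth -510 kb with 1100 kb (0.960 and 0.467). Of these 5 pairs 3 touch the stretch from -540 to -490 kb. The lowest joined -950 kb with 1740 kb, at 0.385 and 0.981 from 10 and 15 contacts, followed by -520 with 1580 kb, 130 with 1720 kb, -620 with 1730 kb and -900 with 1570 kb. No pair of these 2 lists involved the promoter or the ZRS window, and both lists were the same without the low bins.

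Among the 29843 blocks with 100 contacts or more in both maps 35 lay at 0.5 or more and 82 at -0.5 or less. The best covered of the 5 lowest joined -370 kb (28420001 to 28430000) with 1020 kb (29810001 to 29820000), a pair that skips the Shh domain. It stood at 1.54 in i4i5ZRS and 2.33 in i4i5, from 487 and 666 contacts (-0.60, -0.78 to -0.43). Limb i4i5 plus ZRSreg stood at 2.47 and wild type limb at 2.51 there, and midbrain i4i5ZRS at 1.74. The lowest of all joined -300 kb with 130 kb across the lower border, at 0.299 and 0.544 (203 and 263 contacts), against 0.408 in wild type limb. The highest joined -560 kb with 730 kb, at 0.992 and 0.600 (165 and 102 contacts), against 0.904 in wild type limb, and its block includes 1 bin of the stretch from -540 to -490 kb. The next joined -740 kb with 510 kb, at 1.005 and 0.642 against 0.867, and the third, -530 kb with -60 kb, lies in that stretch on one side. The fifth highest lay in the ZRS window: it joined -860 kb with 840 kb, at 1.09 and 0.737 from 182 and 111 contacts (0.57, 0.19 to 0.96), against 1.06 in wild type limb. Its block reaches from 820 to 860 kb and so includes 1 low bin.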

How the data were processed

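Per the submitters' processing notes, the tools were SAMtools, Juicer, cutadapt 1.15 and Bowtie2 2.3.4.1, on mm9. Duplicate handling is not given in the sources used here. Signal deposited per pair of 10 kb bins had been balanced (KR) by the authors on merged samples, at a mapping quality of 30, per the file names. Unlisted pairs were taken as 0. Each value equals a whole contact count times 2 bin factors, and 100% of the counts were recovered within 0.01 of a whole number. Intervals (exact Poisson for levels, exact binomial for ratios, Wilson for shares) rest on these counts. For levels and ratios of blocks the counts were reduced where bin pairs have unequal weights. For shares they were not, so those intervals may be too narrow. Reads without molecular identifiers may repeat a molecule. Alternatives changed the scaling, the expected value, the balancing, the bins, the separation and the smoothing. The regions named are the promoter bins, each window and low bin, both borders, the bin at 810 kb, profile peaks beyond 500 kb, and the 5 highest and lowest means of 5 by 5 bins, without and with the low bins. Members and lists were chosen with earlier results of these data known. The stretch from -540 to -490 kb, the list of blocks with 100 contacts, the 910 and 920 kb bins and the quotients to other promoter contacts were chosen after their values were seen. The scripts (Python 3.11.15, numpy 2.4.6, scipy 1.17.1) were tested on simulated maps. Both maps of a simulated pair were built from the i4i5 signal, so a difference in decay was not part of that test. Genes are placed by order only (RefSeq, GRCm38.p6). Positions of the CTCF sites were not used here, so the deletions were not checked in the maps.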

Additional observations from a re-analysis of the deposited data

How the results depend on the processing

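No paired analysis was possible because the libraries of each group were merged before deposit, and for the same reason no library could be left out. Dividing each map by its total signal only gave log2 ratios (i4i5ZRS over i4i5) of 0.19 for the promoter with the ZRS window, -0.029 with the low bins, -0.28 for the Shh domain with the upper flank and -0.094 within the domain. The signal as deposited gave 0.89, 0.67, 0.42 and 0.60, and 0.92 for 830 to 850 kb, since the maps differ in their total. These scalings leave the difference in decay in the ratio. The median as the expected value gave 0.0073 for the domain with the flank and 0.10 within it. A flank of 30 bins gave 0.019. Counts without balancing gave 0.059 within the domain and 0.062 for the upper border, whose difference was -0.20 without the low bins in the square. Where not stated, the cause was not tested. The share of bin pairs past the fold was 8.53% for 3 by 3 bins and 40.9% for single pairs, where fewer contacts enter each mean, and 0.392% with 100 contacts or more, where thin blocks are left out. The other alternatives kept the direction and moved by less than the counting interval, or for the share of pairs by less than 1.5 times, among them the expected value without the low bins and without both stretches of low coverage, which was added after the data were seen. Depth limits the single bins most: at 870 kb the promoter has 23 contacts in i4i5.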
